A study of Mus musculus with 10 samples.

Results

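Imprinted growth genes are 10 mouse genes, Igf2, Dlk1, Grb10, Cdkn1c, Plagl1, Peg3, Ndn, Mest, H19 and Meg3, most of them expressed from a single parental allele and tied to fetal and early postnatal growth. They were taken by symbol from the deposited gene counts, where each matched 1 Entrez gene ID among 27179, and all 10 passed the filter on low counts that left 16018 genes. The samples were whole cochleas of mice at postnatal day 8, 5 libraries from Pknox2-/- mice (KO) and 5 from Pknox2+/+ mice (WT). Sex, strain, the extent of the deletion and any pooling of pups are not stated in the labels, so p-values measure the spread between these libraries. Every library is from 1 age, so the decline with age that these genes are known for could not be measured, and the counts do not tell the parental alleles apart.

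In genomic imprinting, DNA methylation set in the egg or the sperm leaves 1 parental copy silent. Igf2, Dlk1, Mest, Peg3, Plagl1 and Ndn are expressed mainly from the paternal copy, and H19, Meg3 and Cdkn1c from the maternal copy, while Grb10 differs between tissues. Many of these genes are high in fetal and newborn mouse tissues and fall together as growth slows, and for that reason they are used to gauge how mature a tissue is. Igf2 and H19 lie 72621 bases apart on chromosome 7 and share enhancers, and Dlk1 and Meg3 lie 77659 bases apart on chromosome 12.

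Library totals ran between 16943131 and 17592580 counts in KO and between 16642525 and 19394072 in WT. Pknox2 itself did not check the labels: it averaged 21.1 ± 4.38 CPM (counts scaled to library size with TMM factors) in KO and 19.9 ± 1.96 CPM in WT (SD, n = 5 each), which edgeR put at 0.08 on the log2 scale (SE 0.146, adjusted p = 0.736), and the count covers the whole gene. KO 2, KO 3 and KO 5 stood apart, with scores of 41.2 to 73.5 on the first principal component (56.6% of the variance) against -42.3 to 2.77 in the other 7 libraries. Sex makeup also differed. Summed over 4 Y-linked genes, the level was 209.5 CPM in KO 1 and between 0 and 11.3 CPM in KO 2 to 5, against 197 to 225 CPM in WT 1 to 4 and 102 CPM in WT 5. All 12 cochlear epithelial markers were tested, and they summed to 1828 to 2355 CPM in KO and 1841 to 2319 CPM in WT, although 8 of them lay below 0 in log2 fold change and the list holds both Ceacam16, called lower in KO, and Tectb, called higher. Skeletal muscle, a tissue in which H19 and Igf2 are known to be high, was little represented, with 5 of 10 markers passing the filter and sums of 29.7 to 46.2 CPM in KO and 28.6 to 38.9 CPM in WT.

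None of the 10 genes was called at an adjusted p under 0.05 in edgeR's quasi-likelihood test of KO against WT, where 0.0187% of all tested genes were called (3 of 16018, namely Ceacam16, Tectb and Thbs4). The last of these lies outside the rule for naming genes. DESeq2 called 1 of the 10, H19, and 2.07% of all tested genes (331), while limma-voom called 0 of the 10. At an unadjusted p under 0.05 there were 4, H19, Cdkn1c, Mest and Grb10, all higher in KO; of all tested genes 20.1% passed that level, made up of 11.4% higher and 8.66% lower in KO. The median log2 fold change was 0.18 over the 10 genes and -0.01 over all tested genes, with 7 of the 10 above 0 and 3 below, against 48.3% of all tested genes above 0. Together the 10 genes took 0.288% to 0.382% of the scaled counts in KO and 0.226% to 0.297% in WT. No member had KO and WT libraries that did not overlap, which held for 2.37% of all tested genes.

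**Figure D1:**
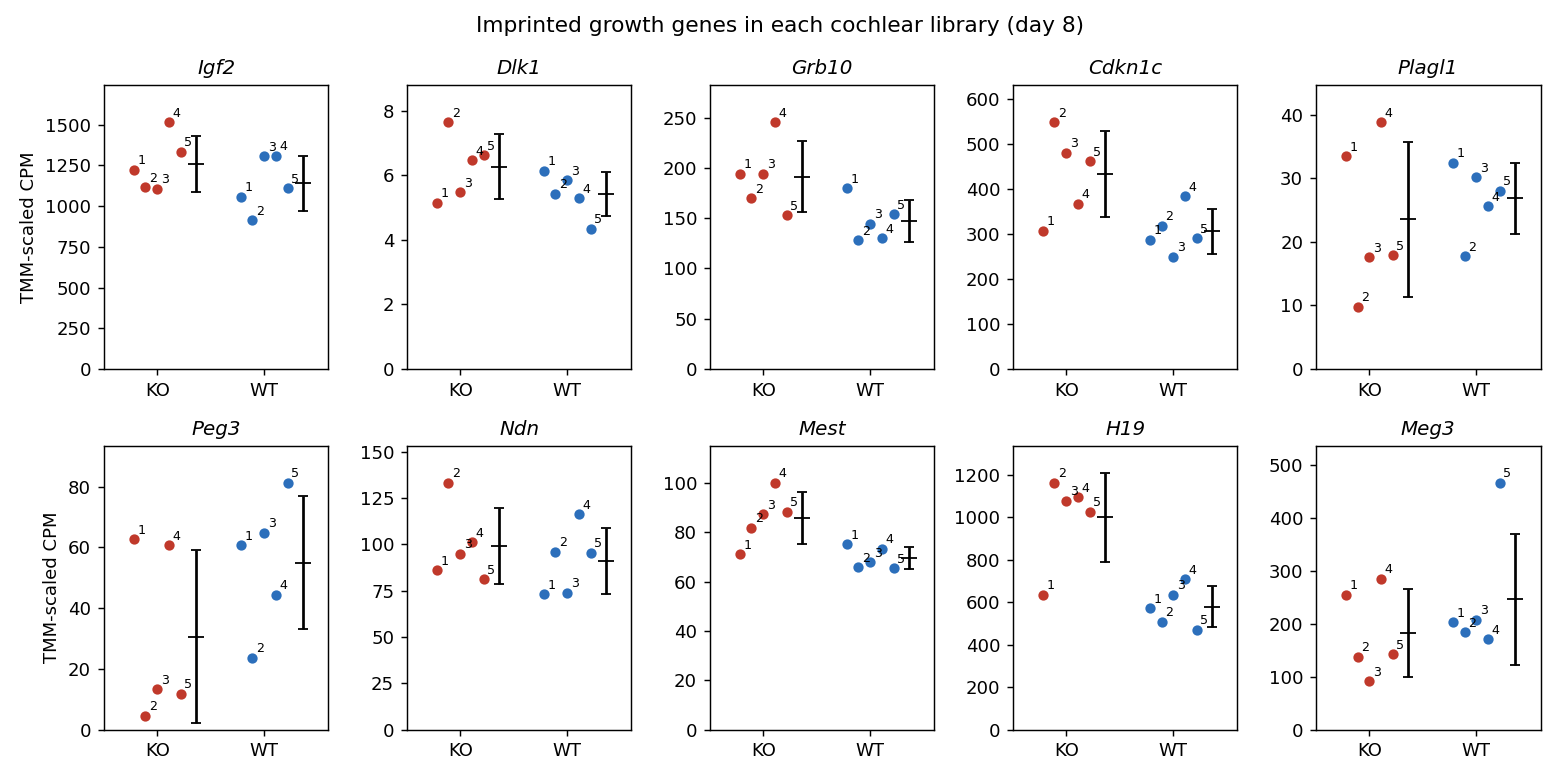
Scaled CPM of each gene in each library, with KO on the left and WT on the right in every panel; numbers are replicate numbers and black bars are the mean with 1 SD (n = 5). H19 stands at 1028 to 1164 CPM in KO 2 to 5 and at 636 CPM in KO 1, inside the WT range, while Peg3 is at 4.66 to 13.2 CPM in KO 2, 3 and 5 only.

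H19, the maternally expressed long noncoding RNA of the Igf2 locus (Entrez 14955, chromosome 7, 142575530 to 142578146, minus strand, GRCm38), had the largest positive difference of the 10. It stood at 636, 1164, 1079, 1096 and 1028 CPM in KO 1 to 5, against 573, 509.6, 636, 709.5 and 471 CPM in WT 1 to 5. KO 2 to 5 all lay above the highest WT library, and KO 1 lay within the WT range. H19 averaged 1001 ± 209 CPM in KO and 579.7 ± 95.9 CPM in WT (SD, n = 5 each), which is 0.79 on the log2 scale (SE 0.172, 95% interval 0.39 to 1.18, adjusted p = 0.179, edgeR). By p it ranked at place 52 of 16018 genes. DESeq2 gave 0.80 (SE 0.179, adjusted p = 0.00296). Without KO 1, the KO library within the WT range, edgeR gave 0.91 (SE 0.132, adjusted p = 0.0207). That fit called 1.03% of all tested genes.

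The H19 difference was below 0.79 in each fit given next. Without KO 2, 3 and 5 the estimate was 0.58 (SE 0.207, adjusted p = 0.9999, edgeR). That fit keeps only KO 1, at 636 CPM, and KO 4, at 1096 CPM. Adding the Y-linked level to the model gave 0.33 (SE 0.229, adjusted p = 0.9999, edgeR). The Y-linked sum was 0 to 11.3 CPM in KO 2 to 5 and 102 to 225 CPM in WT, so it largely follows genotype. How much of the H19 difference comes from library makeup was not tested. Removing the dependence on transcript length within each library gave 0.67 (SE 0.145, adjusted p = 0.0811, edgeR), a fit chosen after the data were seen. KO 1 was the only KO library with a Y-linked sum above 150 CPM, and its H19 level lay within the 509.6 to 709.5 CPM of the 4 WT libraries above that sum. Xist, a noncoding RNA made from an inactive X chromosome, stood between 498 and 684 CPM in KO 2 to 5 and at 0.679 CPM in KO 1. Among WT libraries Xist was highest in WT 5, at 392.1 CPM, where H19 was at its lowest, 471 CPM. With 1 KO library of that kind, genotype and sex makeup cannot be told apart for H19.

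Exon 1 of H19 is known to hold the precursor of miR-675. Its mature strands are printed because they are the small RNA product of the transcript with the largest positive difference. Capitals mark the seed, bases 2 to 8 (RefSeq, GRCm38.p6).
mmu-miR-675-5p: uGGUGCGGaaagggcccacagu
mmu-miR-675-3p: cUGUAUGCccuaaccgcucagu
They lie at chr7:142577112-142577133 and chr7:142577078-142577099 on the minus strand and have different seeds. The row of Mir675 was listed at 0 in all 10 libraries while H19 collected 136065 counts over them. The 8 microRNA genes that lie in or beside the members collected 4 counts in all. Mir675 shares 84 bases with the exons of H19 on the same strand, so its row cannot show whether small RNAs were in these libraries. No level of a mature microRNA was read from these rows.

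Igf2, the fetal insulin-like growth factor (Entrez 16002, chromosome 7, 142650768 to 142666816, minus strand), was the most abundant of the 10 in scaled counts. It stood at 1223, 1117, 1107, 1517 and 1336 CPM in KO 1 to 5, against 1057, 912, 1308, 1311 and 1111 CPM in WT 1 to 5. The groups overlapped across most of their range, with KO 4 and KO 5 above every WT library. The difference in edgeR was 0.14 on the log2 scale (SE 0.136, 95% interval -0.17 to 0.46, adjusted p = 0.503). Leaving out single libraries gave 0.063 (without KO 4) to 0.20 (without WT 4), and 0.074 without WT 2. Per kb of exon, Igf2 averaged 220.2 ± 29.9 in KO and 199 ± 29.9 CPM per kb in WT (SD, n = 5 each), which placed it at rank 157 of 15410 genes in WT. GENCODE places 62.8% of its exonic bases also in the same-strand model Gm49394, so reads of the 2 models could not be separated.

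H19 exceeded Igf2 per length in 9 of the 10 libraries. The ratio of H19 to Igf2 in CPM per kb of exon was 1.21, 2.42, 2.27, 1.68 and 1.79 in KO 1 to 5, against 1.26, 1.30, 1.13, 1.26 and 0.986 in WT 1 to 5. KO 2 to 5 lay above the highest WT ratio, and KO 1 lay within the WT range. The ratio averaged 1.87 ± 0.486 in KO and 1.19 ± 0.129 in WT (SD, n = 5 each).

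**Figure D2:**
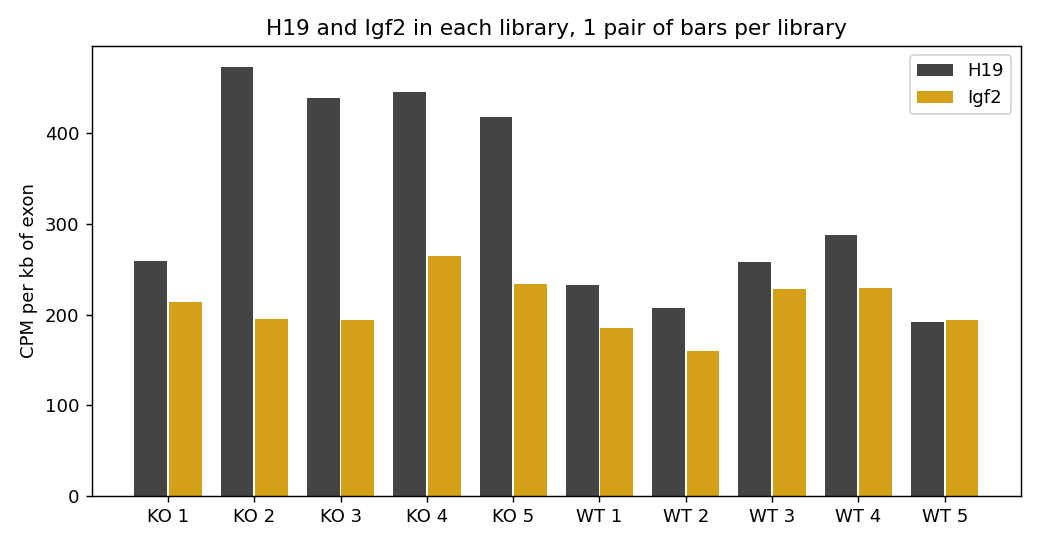
Levels of H19 and Igf2 in CPM per kb of exon, with a dark H19 bar and a yellow Igf2 bar for each library and KO libraries on the left. H19 bars reach 418 to 473 in KO 2 to 5 and 191 to 288 in WT, while Igf2 bars range from 193 to 265 in KO and 159 to 229 in WT.

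The 250 bases before and 50 after an annotated start were read from RefSeq for 8 of the 10 genes, other than H19 and Cdkn1c, giving 15 windows in all. The hexamer TGACAG, which TALE homeodomain proteins of the Pknox and Meis kind bind, was searched on both strands; it occurs in 19.2% of all 32851 windows. Among the members it was in 1 of 15 windows, that of the most upstream of the 4 Igf2 starts, printed here with the hexamer in capitals (chr7:142666767-142667066, minus strand, GRCm38.p6).
Igf2 promoter: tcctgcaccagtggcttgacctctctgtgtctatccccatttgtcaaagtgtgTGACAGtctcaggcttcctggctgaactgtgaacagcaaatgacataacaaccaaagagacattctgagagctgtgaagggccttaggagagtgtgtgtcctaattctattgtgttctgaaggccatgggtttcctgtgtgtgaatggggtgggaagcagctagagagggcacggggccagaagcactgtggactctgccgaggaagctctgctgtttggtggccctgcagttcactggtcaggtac
The window holds 2 CpG dinucleotides. The first Grb10 window holds 45, more than in 98.1% of all windows, and the members' windows had a median of 13 CpG against 7 over all windows.

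Dlk1 encodes a transmembrane protein related to the Notch ligands (Entrez 13386, chromosome 12, 109452485 to 109463336, plus strand) and was the scarcest of the 10. Its level was 5.15, 7.66, 5.49, 6.46 and 6.62 CPM in KO 1 to 5, against 6.15, 5.43, 5.85, 5.29 and 4.35 CPM in WT 1 to 5. These rest on 77 to 125 counts per library, and the groups overlapped. Its log2 difference was 0.21 (SE 0.161, adjusted p = 0.408, edgeR) and turned to -0.08 with Y-linked expression as a covariate; single omissions gave 0.13 to 0.28. Per kb of exon Dlk1 averaged 1.11 ± 0.176 in KO and 0.957 ± 0.121 CPM per kb in WT (SD, n = 5 each), below every other member in WT, at rank 13200 of 15410.

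Cdkn1c and Grb10, which restrain growth, were both higher on average in KO without passing the test. Cdkn1c encodes the cyclin-dependent kinase inhibitor p57 (Entrez 12577, chromosome 7, 143458339 to 143461059, minus strand). It stood at 308, 549.9, 481.5, 367 and 462 CPM in KO 1 to 5, against 288, 319, 250.1, 385 and 291 CPM in WT 1 to 5. KO 2, 3 and 5 lay above every WT library, while KO 1 and KO 4 lay within the WT range. KO exceeded WT by 0.50 on the log2 scale (SE 0.165, adjusted p = 0.214, edgeR), and by 0.14 (SE 0.162, adjusted p = 0.9999) without KO 2, 3 and 5. It was 0.10 (SE 0.222) with Y-linked expression as a covariate.

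Grb10 encodes an adaptor that dampens signalling by the insulin and insulin-like growth factor receptors (Entrez 14783, chromosome 11, 11930499 to 12037428, minus strand). It stood at 194, 170.2, 194, 246 and 153 CPM in KO 1 to 5, against 180.1, 128, 144, 130.2 and 154 CPM in WT 1 to 5. KO 1, KO 3 and KO 4 lay above the highest WT library. For Grb10 edgeR gave 0.38 on the log2 scale (SE 0.139, adjusted p = 0.223). Of the 4 genes at an unadjusted p under 0.05, only Grb10 had a larger log2 fold change in all 3 fits that follow. It was 0.58 (SE 0.151, adjusted p = 0.9999, edgeR) without KO 2, 3 and 5, which leaves KO 1 and KO 4. With the Y-linked covariate it was 0.48 (SE 0.216, adjusted p = 0.9999, edgeR). With the length trend removed it was 0.52 (SE 0.102, adjusted p = 0.0731, edgeR), and none of the 3 passed the test.

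Mest, a membrane protein with an alpha/beta hydrolase fold first known as mesoderm-specific transcript (Entrez 17294, chromosome 6, 30733506 to 30748466, plus strand), varied least among WT libraries. It stood at 71.1, 81.8, 87.4, 100.1 and 88.3 CPM in KO 1 to 5, against 75.3, 65.8, 68.0, 73.3 and 65.5 CPM in WT 1 to 5. KO 2 to 5 all exceeded the highest WT library, with KO 1 inside the WT range, the same arrangement as for H19. Mest differed by 0.30 on the log2 scale (SE 0.1005, adjusted p = 0.214, edgeR), 0.30 (SE 0.134) without KO 2, 3 and 5 and 0.13 (SE 0.151) with the Y-linked covariate. Copg2, on the opposite strand, shares 23.1% of the exonic bases of Mest and averaged 63.4 ± 2.60 CPM in KO and 67.6 ± 2.04 CPM in WT (SD, n = 5 each); whether counting used strand is not stated.

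**Figure D3:**
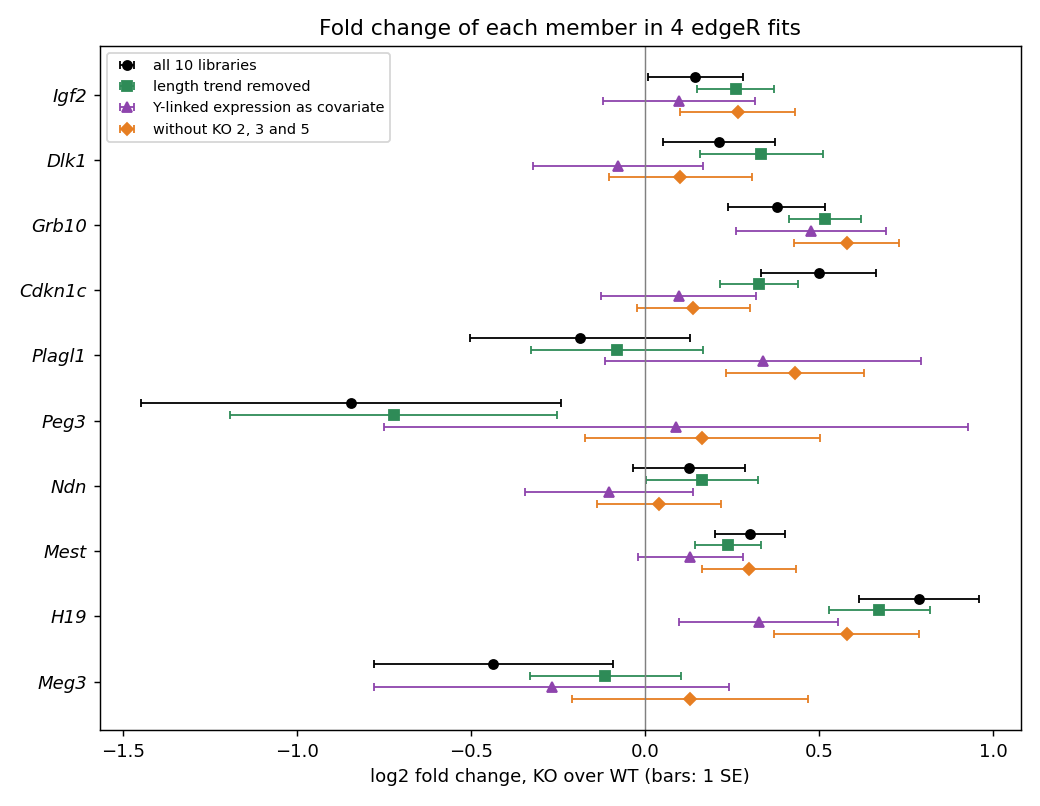
Log2 fold change, KO over WT, of each gene in 4 edgeR fits (all libraries, length trend removed, Y-linked expression as a covariate, and without KO 2, 3 and 5), with bars of 1 SE. H19, Grb10, Mest, Cdkn1c and Igf2 stay above 0 in all 4 fits, while Plagl1 and Peg3 change sign with the Y-linked covariate and without KO 2, 3 and 5, Dlk1 and Ndn with the covariate, and Meg3 without those libraries.

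Ndn encodes necdin, a member of the MAGE family known for restraining the cell cycle in neurons (Entrez 17984, chromosome 7, 62348277 to 62349928, plus strand). It stood at 85.9, 133, 94.96, 101 and 81.1 CPM in KO 1 to 5, against 73.2, 96.0, 73.8, 116 and 95.6 CPM in WT 1 to 5. The groups overlapped almost wholly, with KO 2 alone above the WT range. Its fold change was 0.13 on the log2 scale (SE 0.161, adjusted p = 0.621, edgeR), and it was -0.0017 without KO 2.

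Peg3, Plagl1 and Meg3 were the 3 genes with a log2 fold change below 0, and each was low in KO 2, KO 3 and KO 5. Peg3 encodes a large zinc finger protein (Entrez 18616, chromosome 7, 6703892 to 6730462, minus strand). It stood at 62.7, 4.66, 13.2, 60.6 and 11.8 CPM in KO 1 to 5, against 60.7, 23.7, 64.8, 44.4 and 81.3 CPM in WT 1 to 5. KO 1 and KO 4 lay inside the WT range and the other 3 KO libraries below it. The highest library had 17.5 times the level of the lowest, and the SD of its log2 CPM over the 10 libraries exceeded that of 99.6% of tested genes. For Peg3 the log2 difference in edgeR was -0.84 (SE 0.603, adjusted p = 0.383), and 0.17 (SE 0.339, adjusted p = 0.9999) without KO 2, 3 and 5. It was larger in limma-voom, at -1.36 (SE 0.615, unadjusted p = 0.0464, adjusted p = 0.236), and in edgeR without KO 1, at -1.28 (SE 0.602, adjusted p = 0.150).

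Plagl1 encodes a zinc finger transcription factor that can arrest the cell cycle and, in mice, acts on other imprinted genes (Entrez 22634, chromosome 10, 13090832 to 13131694, plus strand). It stood at 33.6, 9.80, 17.6, 38.9 and 17.9 CPM in KO 1 to 5, against 32.5, 17.8, 30.2, 25.7 and 28.1 CPM in WT 1 to 5. KO 1 and KO 4 lay above every WT library, and KO 2 and KO 3 below. Plagl1 had a log2 difference of -0.19 (SE 0.316, adjusted p = 0.719, edgeR), and 0.43 (SE 0.198, adjusted p = 0.9999) without KO 2, 3 and 5.

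Meg3, the maternally expressed long noncoding RNA beside Dlk1 (Entrez 17263, chromosome 12, 109540996 to 109571729, plus strand), stood at 255, 138, 91.1, 285 and 143 CPM in KO 1 to 5. In WT 1 to 5 it stood at 204, 184, 208, 171 and 467 CPM. KO 2, 3 and 5 lay below every WT library, while KO 1 and KO 4 lay above 4 of the 5. Meg3 had a log2 difference of -0.44 (SE 0.343, adjusted p = 0.425, edgeR). Single omissions gave -0.66 (without KO 4) to -0.07 (without WT 5, the library at 467 CPM). Without KO 2, 3 and 5 the Meg3 difference was 0.13 (SE 0.339).

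The 4 genes with the longest annotated transcripts were Meg3 (14548 bases), Peg3 (8694), Plagl1 (5260) and Grb10 (5061), so the 3 genes below 0 were also the 3 longest. Over all tested genes with a known length, the median log2 fold change was 0.30 for transcripts of up to 1500 bases, 0.10 between 1500 and 3000, -0.06 between 3000 and 5000 and -0.22 at 5000 or more. In each library the median log2 deviation of transcripts of at least 5000 bases minus that of transcripts of up to 1500 bases measures this balance. It was 0.45, -0.95, -0.52, 0.31 and -0.57 in KO 1 to 5, against 0.42, -0.22, 0.32, 0.14 and 0.59 in WT 1 to 5. Ribosomal protein genes took 3.09%, 6.72%, 5.38%, 3.37% and 5.22% of counts in KO 1 to 5 and 2.57% to 4.39% in WT.

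Peg3 followed that balance library by library: its log2 deviation from its own mean was 0.99, -2.73, -1.24, 0.94 and -1.41 in KO 1 to 5, against 0.95, -0.41, 1.04, 0.50 and 1.37 in WT 1 to 5. Among WT libraries, WT 2 had the lowest balance and the lowest Peg3, and WT 5 had the highest of both. Within the 3443 genes with transcripts of at least 5000 bases, the spread of Peg3 over libraries was larger than that of 99.0%, that of Meg3 larger than 87.7% and that of Plagl1 larger than 85.8%, while Grb10 stood at 43.6%. With the length trend of each library removed, the log2 fold change of Peg3 was -0.72 (SE 0.469), that of Meg3 -0.11 (SE 0.217) and that of Plagl1 -0.08 (SE 0.247). In KO 4 the balance was 0.31, within the WT range, and H19 was at 1096 CPM, above it. The part of RNA quality in these values was not tested.

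**Figure D4:**
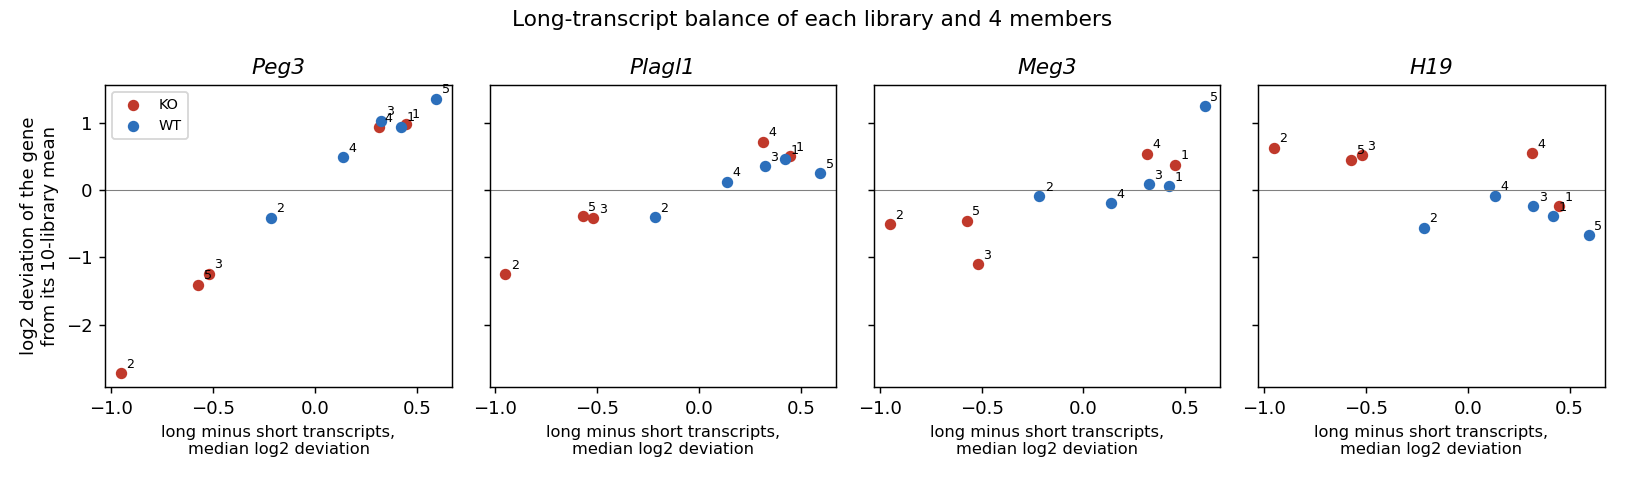
Log2 deviation of Peg3, Plagl1, Meg3 and H19 from their 10-library means, against the median log2 deviation of long minus short transcripts in the same library; red points are KO, blue points WT, and numbers are replicate numbers. Peg3 runs from -2.73 at a balance of -0.95 (KO 2) to 1.37 at 0.59 (WT 5), while H19 is high in KO 4 at a balance of 0.31.

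The promoter windows of these 3 genes are printed because they are the 3 members with a log2 fold change below 0. The octamer GGGGCCCC, which PLAGL1 is known to bind, reads the same on both strands and occurs in 1.08% of all windows; it is in capitals and occurred in 1 of the 15 member windows, that of Peg3. TGACAG, also marked by capitals where it occurs, was in none of the 3.
Peg3 promoter (chr7:6730370-6730669, minus strand): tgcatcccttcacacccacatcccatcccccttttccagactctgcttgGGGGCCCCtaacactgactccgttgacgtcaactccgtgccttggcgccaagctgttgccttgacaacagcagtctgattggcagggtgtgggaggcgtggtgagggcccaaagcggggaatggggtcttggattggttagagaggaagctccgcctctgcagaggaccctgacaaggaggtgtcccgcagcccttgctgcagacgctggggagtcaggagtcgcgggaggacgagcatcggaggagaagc
Plagl1 promoter (chr10:13090582-13090881, plus strand): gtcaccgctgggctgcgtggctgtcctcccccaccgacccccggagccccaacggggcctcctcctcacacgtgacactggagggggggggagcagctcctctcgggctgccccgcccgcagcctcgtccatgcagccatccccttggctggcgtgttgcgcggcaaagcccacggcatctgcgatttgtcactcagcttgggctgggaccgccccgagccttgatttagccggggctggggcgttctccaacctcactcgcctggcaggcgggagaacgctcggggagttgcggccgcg
Meg3 promoter (chr12:109540746-109541045, plus strand, the first of 2 windows): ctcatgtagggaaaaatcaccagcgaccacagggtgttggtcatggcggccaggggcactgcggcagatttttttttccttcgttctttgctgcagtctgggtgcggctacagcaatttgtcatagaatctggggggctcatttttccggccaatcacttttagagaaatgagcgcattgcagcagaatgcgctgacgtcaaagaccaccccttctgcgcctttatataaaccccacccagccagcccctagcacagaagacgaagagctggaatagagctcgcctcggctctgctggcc
The windows hold 13 CpG dinucleotides for Peg3, 26 for Plagl1 and 13 for Meg3.

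By the root mean square difference of centred log2 CPM over the 10 libraries, the member nearest to Igf2 was Mest (0.186), and Mest was also the nearest to Dlk1 (0.178) and Grb10 (0.199). Cdkn1c was nearest to H19 (0.262) and to Ndn (0.273), while Meg3 was nearest to Plagl1 (0.502) and Plagl1 to Peg3 (0.790). Outside the members, the genes nearest to Igf2 were Mfsd8 (0.107), Slc24a3 (0.119), Ccn3 (0.120), Tfcp2 (0.121) and Crispld1 (0.122), against a median of 0.307 over 11226 genes. These are descriptions over 10 libraries that differ in makeup, and the part of that makeup in them was not tested.

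Neighbours in the same imprinted domains, chosen by position after the members' values were seen, did not all share their patterns. Rian, a noncoding RNA downstream of Meg3, stood at 116, 82.6, 62.6, 138 and 79.0 CPM in KO 1 to 5 and 103 to 146 CPM in WT, so that KO 2, 3 and 5 were low here too. Mirg, further along the same domain, averaged 2.70 ± 0.573 CPM in KO and 2.53 ± 0.617 CPM in WT. Zim1, beside Peg3, had 0.184 CPM in KO 2, the lowest of the 10 libraries, and 2.67 CPM in KO 4, the highest. Its level in KO 2 rests on few counts. Usp29, in the same domain as Peg3, stood at 1.92, 1.65, 1.04, 2.098 and 1.14 CPM in KO 1 to 5. It ran between 1.13 and 2.21 CPM in WT, so KO 2 lay within the WT range. The log2 difference of Usp29 was 0.07 (SE 0.277, edgeR). Igf2r, which encodes the receptor that clears IGF2, is not a neighbour, as it lies on chromosome 17, where no member lies. Igf2r averaged 88.9 ± 36.1 CPM in KO and 103 ± 20.8 CPM in WT (SD, n = 5 each), or -0.21 on the log2 scale (SE 0.268, adjusted p = 0.626, edgeR).

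Of 46 other imprinted genes listed, 45 had a row, 36 were tested and none was called by edgeR, with 16 above 0, 20 below 0 and a median log2 fold change of -0.01. At an unadjusted p under 0.05 there were 6, of which 3 were higher and 3 lower in KO, against 20.1% of all tested genes at that level. DESeq2 called Ddc and Zrsr1, against 2.07% of all tested genes. Ddc, which encodes the decarboxylase of dopamine and serotonin synthesis and lies beside Grb10, averaged 4.45 ± 0.734 CPM in KO and 2.49 ± 0.792 CPM in WT (SD, n = 5 each), or 0.83 on the log2 scale (SE 0.233, adjusted p = 0.210, edgeR). Zrsr1, a splicing factor gene, averaged 31.1 ± 5.51 CPM in KO and 42.6 ± 1.48 CPM in WT, with -0.45 (SE 0.123, adjusted p = 0.210, edgeR).

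Of 31 listed genes of insulin-like growth factor signalling, binding and proteolysis, 27 were tested and none was called by edgeR or DESeq2, while 6 had an unadjusted p under 0.05, against 20.1% of all tested genes. The median over the 27 was -0.15, and it turned to 0.043 with the Y-linked covariate, 0.069 without KO 2, 3 and 5 and 0.022 with the length trend removed. Among ligands, receptors and signalling genes 14 of 15 were below 0 with all libraries, with a median of -0.21, while 48.3% of all tested genes were above 0. The smallest p in that list were those of the PI3-kinase subunit genes Pik3r1 (log2 fold change -0.34, SE 0.115) and Pik3ca (-0.24, SE 0.0936), at adjusted p = 0.217 and adjusted p = 0.226 (edgeR). Binding proteins and proteases had a median of -0.04, with 5 of 12 above 0. The protease gene Htra1 had a log2 fold change of 0.45 (SE 0.146) and the binding protein gene Igfbp4 of 0.40 (SE 0.140), at adjusted p = 0.214 and adjusted p = 0.217 (edgeR).

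Other gauges of growth and maturity were set beside the members. Growth programme genes that are not imprinted, among them the Igf2 mRNA-binding proteins, had a median log2 fold change of 0.05 with 11 of 18 above 0, against 48.3% of all tested genes. Of these 18 edgeR called none and 3 had an unadjusted p under 0.05, against 20.1% of all tested genes. Mdk, the growth factor midkine, averaged 257 ± 82.0 CPM in KO and 146 ± 20.2 CPM in WT (SD, n = 5 each), with 0.82 (SE 0.200, adjusted p = 0.208, edgeR), and DESeq2 called it. Lin28a had -1.31 (SE 0.505) at 0.546 ± 0.348 CPM in KO and 1.36 ± 0.695 CPM in WT. The median of 22 cell cycle genes was -0.14 and 18 of them lay below 0, where 48.3% of all tested genes lay above 0; none was called by edgeR or reached an unadjusted p under 0.05 (Kif11 -0.53, Rrm2 -0.46).

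For 20 genes that increase with maturation of hair cells, stria, neurons and myelin the median was -0.49, with 17 below 0 and 11 lower in KO at an unadjusted p under 0.05, against 8.66% of all tested genes. The median was -0.26 without KO 2, 3 and 5 and -0.30 with the Y-linked covariate, with 6 genes at an unadjusted p under 0.05 in either fit. Of all tested genes, 662 of 16463 reached that level without KO 2, 3 and 5 and 293 of 16018 with the covariate. None was called by edgeR and 4 by DESeq2, among them Kcnj16, Pmp22 and Mal, against 2.07% of all tested genes. Their summed level was 12170 to 16608 CPM in KO and 18638 to 23346 CPM in WT. Kcnj16, a potassium channel gene, had -0.72 (SE 0.149) and Pmp22, a peripheral myelin protein gene, -0.57 (SE 0.121), both at adjusted p = 0.179 (edgeR). In whole tissue, fewer cells of a type and less RNA per cell cannot be told apart.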

How the data were processed

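Raw read counts per Entrez gene were deposited for 10 libraries, and all columns were mapped by their titles. HISAT2, featureCounts, limma and the build mm10 are named without roles or versions, per the submitters' processing notes. The annotation, any filter and the strand setting are not stated. Symbols and positions came from RefSeq (GRCm38.p6) for 25275 of 27179 IDs, and exon and transcript lengths from GENCODE release M21 (96.2% of tested genes). Levels between genes are compared per kb of the union of exons.

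KO and WT were compared with the quasi-likelihood F-test of edgeR 4.0.16 (R 4.3.3) on the deposited counts of all 10 libraries, with the group as the only term, TMM scaling, filterByExpr (minimum count 10, minimum total 15) and Benjamini-Hochberg adjustment over 16018 genes. Log2 fold changes are KO minus WT; the SE is the size of the fold change over the square root of F, and intervals use a t distribution with 8 residual degrees of freedom. Log2 CPM for deviations used a prior count of 2. On counts simulated for this comparison with 200 changed genes, tested on 15884 genes, the fit called 19.4% of genes changed 1.5-fold and 76.1% of those changed 2-fold. No library pair differed by less than sampling noise (chi-square per degree of freedom at least 9.98).

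The alternatives were other scalings and filters, DESeq2 1.42.0, limma-voom (limma 3.58.1), the replicate number as a block, Y-linked expression as a covariate, an adjusted p under 0.1, leaving out libraries, and, added after seeing the data, removal of each library's lowess trend over transcript length. All 10 members are named; from each other list the called genes or the 2 with the smallest p are named, and 5 genes nearest to Igf2. The members and lists were chosen with earlier results of these data known.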

Additional observations from a re-analysis of the deposited data

Results flagged for a closer look

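In 22 sets of 5 libraries examined (each member in each group, and the ratio of H19 to Igf2), 2 held a library far from the other 4 by Dixon's test at the 95% level, which chance does in about 1 of 20 sets. H19 in KO 1 was at 636 CPM, with the other KO libraries at 1028 to 1164 CPM. Meg3 in WT 5 was at 467 CPM, with the other WT libraries at 171 to 208 CPM.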

How the results depend on the processing

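The median log2 fold change of the 10 genes ran between 0.0977 (Y-linked covariate) and 0.25 (length trend removed) over the fits run, and H19, Igf2, Cdkn1c, Grb10 and Mest were above 0 in all of them, the scalings included. Over all tested genes, where edgeR with all libraries called 3, DESeq2 called 331, the replicate block 1, the Y-linked covariate 0 (293 at an unadjusted p under 0.05), a threshold of 0.1 gave 7, the fit without KO 2, 3 and 5 gave 1 and the fit with the length trend removed 13. Leaving out single libraries gave 1 to 166, with 166 without KO 1 and 1 or 2 without any other library. Among the members DESeq2 called 1, and single omissions gave 0 to 1. DESeq2 called 2 other imprinted genes, 1 growth programme gene and 4 maturation genes, and single omissions gave 0 to 1 for both of the last lists (Mdk and Kcnj16, without KO 1). Directions reversed with the Y-linked covariate for Dlk1 (-0.077), Plagl1 (0.34), Peg3 (0.091) and Ndn (-0.10), and without KO 2, 3 and 5 for Plagl1 (0.43), Peg3 (0.17) and Meg3 (0.13). Single omissions gave -0.45 to 0.0092 for Plagl1 and -0.0017 to 0.23 for Ndn. The cause was not tested. Same-numbered KO and WT libraries did not pair (correlations of their deviations from -0.383 to 0.51), and the replicate block called no member, with Peg3 at -1.36 (unadjusted p = 0.0214, adjusted p = 0.175, edgeR). Dlk1 had the fewest counts of the 10, 77 to 125 per library.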

Other observations

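Partner families of the members held no gene called by edgeR; at an unadjusted p under 0.05 there were 3 of 12 Notch genes, 1 of 5 CDK inhibitors, 2 of 5 PLAG relatives and targets, 2 of 8 MAGE genes and partners and 0 of 6 Grb adaptors and partners, against 20.1% of all tested genes. Hes1, a Notch target gene, averaged 53.1 ± 16.4 CPM in KO and 33.9 ± 5.11 CPM in WT (SD, n = 5 each), or 0.64 on the log2 scale (SE 0.196, adjusted p = 0.214, edgeR), and Hey1 had 0.25 (SE 0.101). The CDK inhibitor genes Cdkn1b and Cdkn1a had -0.22 (SE 0.0920) and 0.18 (SE 0.0947). Maged2 and Maged1, of necdin's family, had 0.44 (SE 0.122) and 0.30 (SE 0.120). Plag1 and Plagl2, relatives of Plagl1, had -0.97 (SE 0.383) and -0.38 (SE 0.152). Grb7, an adaptor related to Grb10, had -0.45 (SE 0.229), and Nedd4, a ubiquitin ligase that binds Grb10, had -0.35 (SE 0.244).

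Markers of mesenchyme and bone, tissues in which several members are known to be expressed, were set beside them. The 13 mesenchyme markers summed to 15208 to 20757 CPM in KO and 12973 to 17544 CPM in WT, with 7 above 0 and 6 below in log2 fold change and a median of 0.07. Col1a1 alone averaged 8034 ± 732 CPM in KO and 5607 ± 706 CPM in WT (SD, n = 5 each). The 8 osteoblast markers, all above 0, summed to 11267 to 13970 CPM in KO and 9567 to 11604 CPM in WT. Cartilage markers, with 5 of 8 tested below 0 and a median of -0.07, summed to 12541 to 14415 CPM in KO and 9358 to 15918 CPM in WT. Otic fibrocyte markers, with 7 of 8 below 0, summed to 3495 to 5052 CPM in KO and 4349 to 5402 CPM in WT. The 8 osteoclast and macrophage markers, with 7 above 0, summed to 4172 to 7494 CPM in KO and 2548 to 4048 CPM in WT. The 8 Schwann cell markers, all below 0, summed to 9726 to 12873 CPM in KO and 15293 to 19470.0 CPM in WT, and the 8 neuron markers, with 6 below 0, to 548 to 1369 CPM in KO and 1103 to 1709 CPM in WT. The part of these cells in the members' levels was not tested.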
